A study of Mus musculus with 2 samples.

Results

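Erythroid barcodes were picked out of mouse eye tissue by their globin RNA, and the RNA other than globin that they still carried was described. A barcode, the tag of 1 droplet, was a member if it held at least 500 unique molecular identifiers (UMIs, each counting 1 captured RNA molecule) and if Hba-a1, Hba-a2, Hbb-bs and Hbb-bt, the adult globin genes, made up at least 50% of them. The rule found 153 of the 3949 barcodes with at least 500 UMIs. These were 69 of 1767 in the Tsc1 flox library (3.90%, exact binomial 95% interval 3.05 to 4.92) and 84 of 2182 in the Tsc1 RPE KO library (3.85%, 3.08 to 4.74).

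The study profiled cells of the retinal pigment epithelium (RPE) and the choroid, the vascular layer behind it, in 2 libraries of 10x Genomics droplet RNA sequencing. Tsc1 flox mice carried the floxed Tsc1 allele Tsc1tm1Djk/J without Cre. Tsc1 RPE KO mice carried the same allele together with Best-Cre, which the labels describe as specific to the RPE, so the blood cells described here were not the cells in which Tsc1 was to be deleted. All mice were 10 weeks old, and each library pooled 1 male and 1 female, so there was 1 sample per genotype and no test between genotypes was possible. Per the labels, the neural retina had been taken off before enzymes dissociated the tissue and a sort kept live cells. All intervals below are 95% intervals and cover counting error only.

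A red cell forms from a nucleated erythroblast that fills with globin and heme, ejects its nucleus and becomes a reticulocyte. The reticulocyte makes no new messenger RNA. It translates what remains while ubiquitin-dependent degradation and autophagy of mitochondria clear its organelles and ribosomes, and the mature red cell that results has little RNA. Messages that are still present in a blood reticulocyte are therefore those that were abundant or long-lived. Droplets also take up free RNA from broken cells. The members were therefore compared throughout with barcodes of 10 to 100 UMIs, which stand for that free RNA. Some of these were rich in globin: 2593 of 65704 in Tsc1 flox and 1909 of 69484 in Tsc1 RPE KO held at least 50%. Those barcodes need not be free RNA.

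The threshold of 50% fell into a wide gap. In Tsc1 flox the highest globin share outside the members was 1.26% and the lowest inside was 90.2%. For Tsc1 RPE KO the highest outside was 29.0%, in a barcode of 8692 UMIs, and the lowest inside was 71.5%. By depth, the members reached down to 512 and 532 UMIs, and the deepest barcodes below 500 UMIs with as much globin had 406 and 377. Any minimum from 30% to 70% gave the same barcodes. The plot of globin share against total UMIs shows both groups and the gap between them.

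**Figure D1:**
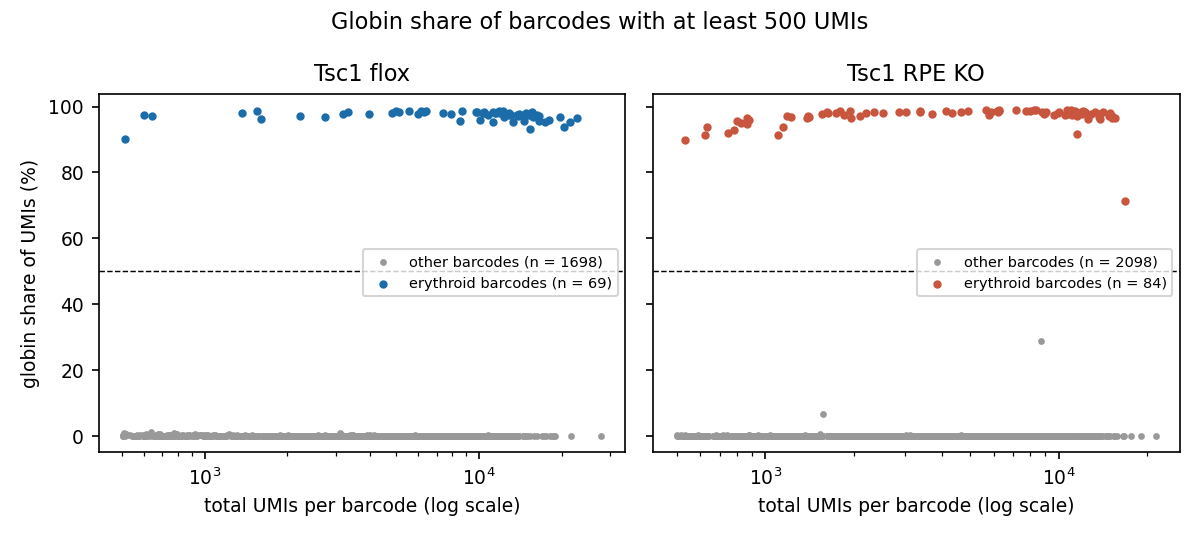
Globin share of UMIs (Hba-a1, Hba-a2, Hbb-bs and Hbb-bt, in %) against total UMIs on a log scale, 1 point per barcode with at least 500 UMIs, with the minimum of 50% as a dashed line. The 69 and 84 erythroid barcodes lie at the top and almost all others at the bottom; 1 Tsc1 RPE KO barcode lies between, at 29.0%.

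In Tsc1 flox the members held a median of 11811 UMIs (512 to 22683) from 98 genes (18 to 380), and in Tsc1 RPE KO 6180 UMIs (532 to 16771) from 51 genes (22 to 2053). The other barcodes had medians of 4243.5 and 4327.5 UMIs. When every barcode was thinned to 500 UMIs, the members showed medians of 14 and 13 genes and the other barcodes 346 and 354; the rule leaves few non-globin UMIs per member, so this low number of genes follows from it. Non-globin UMIs per member ran from 16 to 1276 in Tsc1 flox, with a median of 238, and from 25 to 4784 in Tsc1 RPE KO, with a median of 86.5. The Tsc1 flox members thus had more RNA of both kinds per barcode, and the ranges overlapped.

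Alas2, the first enzyme of heme synthesis in erythroid cells and the marker the rule did not use, was present in 65 of 69 members in Tsc1 flox and 58 of 84 in Tsc1 RPE KO. Among the other barcodes it had a UMI in 0.24% and 0.05%. With all barcodes thinned to 500 UMIs, Alas2 was found in 46.4% and 20.2% of members against 0.06% and 0.05% of the others. The globin content follows from the rule. Alas2, found in most members, matches the erythroid label, and the data do not separate reticulocytes from older red cells.

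Other cell types were checked with 72 markers of 11 types. In Tsc1 flox no member held more than 2 UMIs of them, and 50 of 69 held none. In Tsc1 RPE KO 55 of 84 held none, and 2 barcodes stood apart. One had 16771 UMIs, 71.5% globin, 2053 genes and 138 marker UMIs, with 66 UMIs of Cd74, an antigen presentation gene, and 29 of Igkc, an immunoglobulin light chain, both on the B cell list. The other had 11494 UMIs, 91.7% globin and 126 marker UMIs, with 105 UMIs of Ttr, from the RPE list, and 118 of Ptgds, which RPE cells also express. These 2 mixed barcodes, defined by at least 3 marker UMIs, held 32.7% of the non-globin UMIs of the Tsc1 RPE KO members, and values are given without them from here unless stated otherwise. Markers of platelets, neutrophils and mast cells were at 0 in the members of both libraries.

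The 2 barcode lists overlapped. No member was a member in both libraries, but the barcode of each of the 69 Tsc1 flox members was also listed in the Tsc1 RPE KO library, with a median of 55 UMIs (at most 110) that were 96.4% globin. Each of the 84 Tsc1 RPE KO members was likewise listed in Tsc1 flox, with a median of 44.5 UMIs (at most 102) that were 96.9% globin. These copies amounted to 0.44% and 0.64% of the members' own UMIs. Other barcodes with at least 500 UMIs were listed in the opposite library almost as fully, 1695 of 1698 and 2098 of 2098, with medians of 16 and 20 UMIs there. With all members counted, leaving the copies out of the free RNA changed the count of genes above free RNA from 138 to 136. Leaving out its barcodes with at least 50% globin instead also gave 136.

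Non-globin RNA made up 2.90% of the members' UMIs in Tsc1 flox (interval 2.86 to 2.94) and 2.19% in Tsc1 RPE KO (2.15 to 2.23). With the mixed barcodes kept, the Tsc1 RPE KO share was 3.09%, so the order of the libraries turned on 2 barcodes. Across barcodes it ran from 1.26% to 9.77% in Tsc1 flox, with a median of 2.41%. The Tsc1 RPE KO members ran from 0.99% to 10.2%, with a median of 2.02%. These ranges overlapped almost completely, and since the globin share chose the members, they are a description.

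The globin RNA itself came mostly from the beta chain. Hbb-bs (ENSMUSG00000052305, chr7:103826534-103828096, minus strand, GRCm38), an adult beta-globin gene, gave 49.3% of member UMIs in Tsc1 flox against 53.0% in Tsc1 RPE KO with all members counted. Hba-a1 (ENSMUSG00000069919, chr11:32283511-32284465, plus strand) gave 21.3% and 20.9%. Hba-a2 (ENSMUSG00000069917, chr11:32296489-32297298, plus strand) gave 16.4% and 15.4%. Hbb-bt (ENSMUSG00000073940, chr7:103812524-103813996, minus strand), the other adult beta-globin gene, gave 10.0% and 7.60%. The alpha genes are near-identical copies, and much of the beta pair is alike, so the split within each pair depends on how the reads were assigned, which is not given in the sources used here.

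Minor and embryonic globins were almost absent, counted over all members. Hbq1a and Hbq1b, theta-like globins of unclear function, had 20 and 14 UMIs in Tsc1 flox against 10 and 5 in Tsc1 RPE KO. Hba-x, Hbb-bh1, Hbb-bh2 and Hbb-y, the embryonic genes, had 0 UMIs in both libraries, which allows each a share of up to 0.000403% of member UMIs in Tsc1 flox and, for the other library, 0.000529%.

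The alpha genes kept a near-constant ratio between barcodes, while the beta genes did not. Hba-a2 was 43.6% of alpha globin in Tsc1 flox, with barcodes from 35.3% to 48.1% (SD 2.56), and 42.4% in Tsc1 RPE KO, with barcodes from 36.3% to 47.9% (SD 2.47). Hbb-bt was 16.9% of beta globin in Tsc1 flox, with barcodes from 0.30% to 24.7% (median 15.7%, SD 6.93). In Tsc1 RPE KO it was 12.5%, with barcodes from 0% to 21.0% (median 5.07%, SD 6.84). The lowest barcodes had almost no Hbb-bt beside many UMIs of Hbb-bs.

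The share of Hbb-bt followed the depth of the barcode. Its correlation with total UMIs was 0.84 by Pearson and 0.78 by Spearman over 69 Tsc1 flox barcodes, and 0.86 and 0.83 over 82 Tsc1 RPE KO barcodes; the barcodes of a library share its preparation and their own depth enters both measures, so these are descriptions. Split by total UMIs within each library, the deeper barcodes had 18.8% Hbb-bt and the shallower 12.7% in Tsc1 flox, and 14.4% and 3.82% in Tsc1 RPE KO. Hba-a2 differed little between the same barcodes, at 43.8% and 43.0% in Tsc1 flox and 42.7% and 41.2% in Tsc1 RPE KO. The plot of both pairs against depth shows the rise of Hbb-bt and the flat band of Hba-a2. In free RNA Hbb-bt was 15.5% of beta globin in Tsc1 flox against 14.5% in Tsc1 RPE KO.

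**Figure D2:**
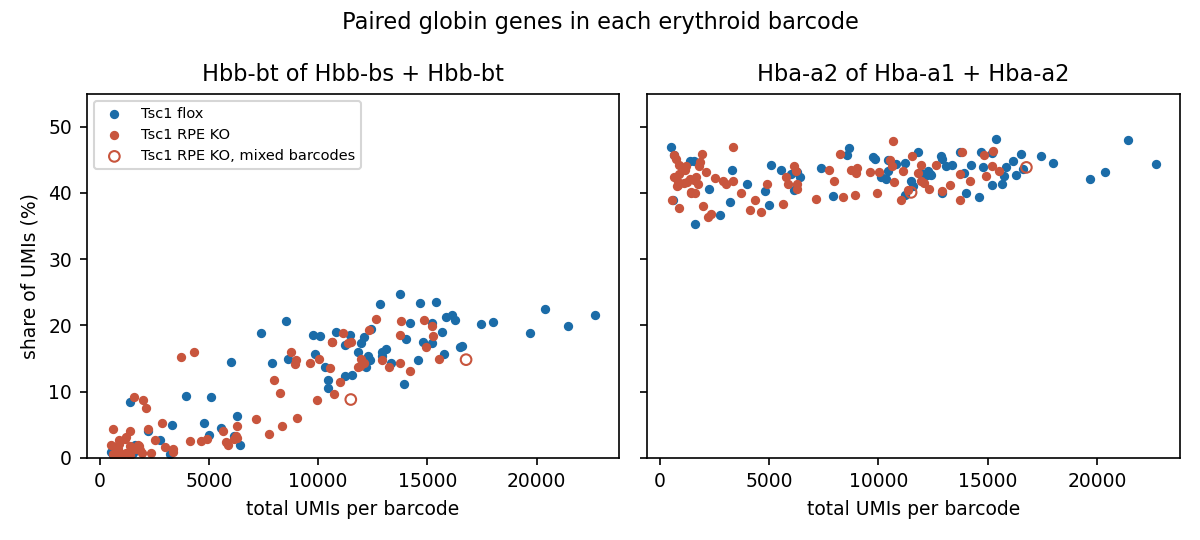
Share of Hbb-bt in beta globin (left) and of Hba-a2 in alpha globin (right), in % of UMIs, against total UMIs, 1 point per erythroid barcode, coloured by library, with the 2 mixed barcodes as open circles. Hbb-bt runs from 0% to 24.7% and is lowest in shallow barcodes, while Hba-a2 stays between 35.3% and 48.1%.

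Promoter sequence is shown for the beta pair because its 2 genes differed in level and in constancy, for Hba-a1 as the constant pair, and for Alas2 as the leading heme gene. Each line gives the 250 bases before the RefSeq transcription start, GRCm38.p6, 5′ to 3′ on the gene's strand. The GENCODE gene bounds, used for the gene positions given elsewhere, begin inside these windows. Capitals mark matches on either strand to 5 strings. GATA factors bind AGATAA and also the string TGATAA. The string CCACACCC is a CACC box, which KLF1 binds. The GC box was searched as CCGCCC, and the TATA box as the letters TATAAA.
Hbb-bs, chr7:103827929-103828178, minus strand: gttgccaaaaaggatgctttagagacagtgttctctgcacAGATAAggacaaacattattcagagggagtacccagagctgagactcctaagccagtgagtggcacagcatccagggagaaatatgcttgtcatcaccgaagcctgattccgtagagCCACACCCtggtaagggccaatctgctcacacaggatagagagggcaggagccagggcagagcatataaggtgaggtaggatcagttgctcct
Hbb-bt, chr7:103813924-103814173, minus strand: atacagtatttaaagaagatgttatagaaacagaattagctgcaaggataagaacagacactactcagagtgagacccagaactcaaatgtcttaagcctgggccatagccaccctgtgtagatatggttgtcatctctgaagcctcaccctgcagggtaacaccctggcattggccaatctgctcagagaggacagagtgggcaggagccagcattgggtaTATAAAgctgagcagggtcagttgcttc
Hba-a1, chr11:32283422-32283671, plus strand: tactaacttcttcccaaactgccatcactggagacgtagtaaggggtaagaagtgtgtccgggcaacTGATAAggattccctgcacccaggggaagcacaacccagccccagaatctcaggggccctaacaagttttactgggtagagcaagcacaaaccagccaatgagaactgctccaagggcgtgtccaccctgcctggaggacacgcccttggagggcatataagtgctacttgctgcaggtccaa
Alas2, chrX:150547167-150547416, plus strand: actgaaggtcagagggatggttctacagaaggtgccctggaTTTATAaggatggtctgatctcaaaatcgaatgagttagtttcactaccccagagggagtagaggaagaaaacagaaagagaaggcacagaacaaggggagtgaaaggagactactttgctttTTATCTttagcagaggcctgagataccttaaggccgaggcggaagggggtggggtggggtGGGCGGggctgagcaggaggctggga
Hbb-bs held AGATAA from 210 to 205 bases and CCACACCC from 93 to 86 bases before the start, and neither string was found in the Hbb-bt window, which held TATAAA from 28 to 23 bases before the start. Aligned without gaps, the beta windows were identical at 127 of 249 bases. Those of Hba-a1 and Hba-a2 were identical at 247 of 247 bases after a shift of 3 bases. Among 32817 RefSeq promoter windows of this length, AGATAA was found in 9.99%, the string TGATAA in 7.95%, the CACC box in 3.19%, the GC box in 32.7% and the TATA box in 12.4%. A match is a description of letters and not evidence of a bound factor.

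The non-globin RNA was concentrated in few genes. Levels below are UMIs per 10000 non-globin UMIs of the same library. The 15 most abundant genes gave 41.4% of non-globin UMIs in Tsc1 flox against 44.8% in Tsc1 RPE KO. Gm42418, a locus that overlaps ribosomal RNA, led both with 1166 UMIs (539 per 10000) and 905 UMIs (767 per 10000), but it was also the most abundant of these genes in free RNA, at 306 and 237 per 10000. Alas2 (chrX:150547375-150570638), Bpgm, Mkrn1, Ubb, Ftl1, Oaz1 and Sec61g followed.

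Genes above free RNA were found with a rule of at least 2-fold with an interval above 1 in both libraries, over genes with at least 50 UMIs in members and free RNA together. Of 6941 genes tested, 141 were higher in the members (2.03%) and 178 lower (2.56%). With the mixed barcodes kept, 138 of 6952 were higher (1.99%) and 168 lower (2.42%), and 134 of the higher and 127 of the lower genes were shared. The gene lists, chosen with earlier results of these data known, are described next, and the counts called in them are a description. The summed levels of the lists in members and free RNA are drawn in the plot of gene lists.

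**Figure D3:**
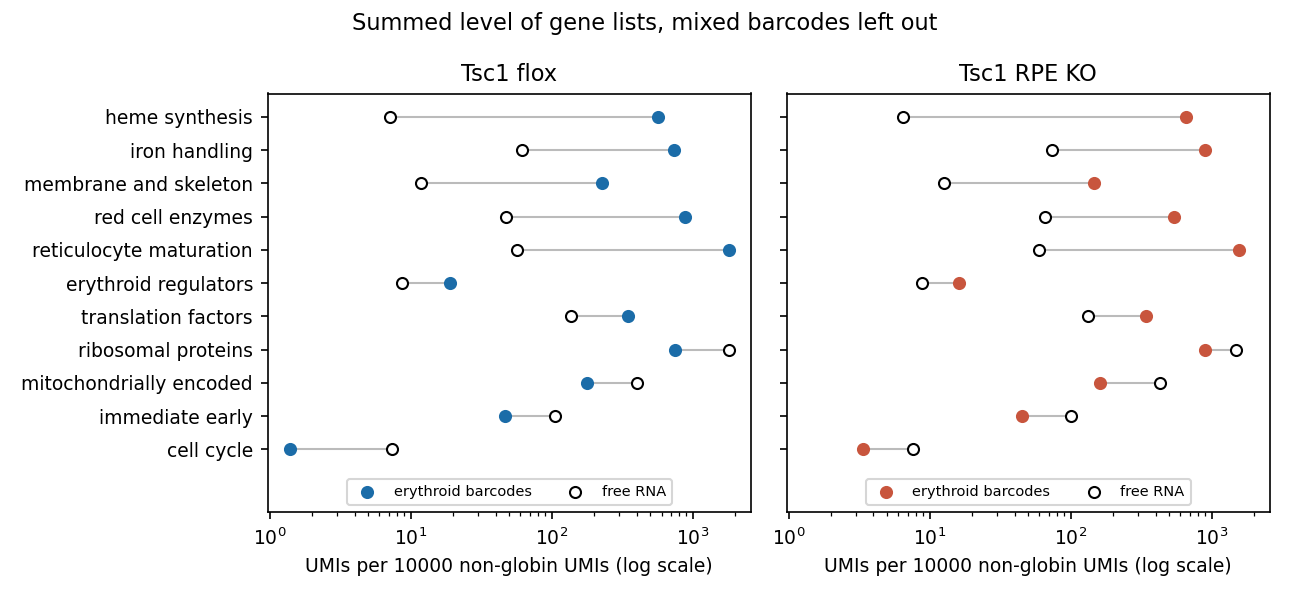
Summed level of each gene list, in UMIs per 10000 non-globin UMIs on a log scale, in erythroid barcodes without the mixed barcodes (filled) and in free RNA (open), 1 panel per library. Heme synthesis, iron handling, membrane, enzyme and reticulocyte maturation genes lie to the right of free RNA in both libraries, and ribosomal protein, mitochondrially encoded, immediate early and cell cycle genes lie to the left.

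Heme synthesis was carried by its first and last steps. Alas2 had 940 UMIs in Tsc1 flox, at 435 per 10000 against 1.80 in free RNA, with a ratio of 242 (interval 208 to 283). The Tsc1 RPE KO members had 604 UMIs of it, at 512 per 10000 against 0.57, with a ratio of 898 (705 to 1160). Fech, ferrochelatase, which puts iron into the porphyrin ring, had 126 and 78 UMIs, at 130 and 162 times free RNA. Slc25a39, a mitochondrial carrier needed for heme and iron-sulphur enzymes, had 135 and 86 UMIs, at 140 and 186 times. The steps between were sparse: Alad had 0 and 1 UMIs, Cpox 2 and 0, and Urod 15 and 3. In all, 4 of the 11 tested heme genes were higher than free RNA (Alas2, Fech, Slc25a39 and Urod) and 0 lower, against 2.03% and 2.56% of all genes tested. With the mixed barcodes kept, 3 of 11 were higher, beside 1.99%. In Tsc1 flox 80% of the Urod UMIs lay in 3 barcodes.

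Among iron genes, those of storage, transfer to mitochondria and iron-sulphur clusters were present. Of 14 tested, 7 were higher than free RNA and 0 lower, beside 2.03% and 2.56% of all genes. Ftl1, the ferritin light chain, had 757 UMIs in Tsc1 flox, at 350 per 10000 and 20.6 times free RNA, and 626 UMIs in Tsc1 RPE KO, at 531 per 10000 and 25.9 times. Fth1, the heavy chain, had 360 and 150 UMIs, at only 4.62 and 2.83 times free RNA. Slc25a37, mitoferrin, had 117 and 66 UMIs. Isca1, Glrx5 and Iscu, which build iron-sulphur clusters, had 140, 108 and 52 UMIs in Tsc1 flox and 108, 31 and 27 in Tsc1 RPE KO. Ncoa4, which takes ferritin to the lysosome, was the seventh. Tfrc, the transferrin receptor that takes up iron, had 0 UMIs in both libraries.

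The membrane list was carried by few genes. Of 13 tested, 5 were higher than free RNA and 0 lower, beside 2.03% and 2.56% of all genes. Epb41, protein 4.1 of the membrane skeleton, had 173 and 94 UMIs at nearly the same level, 80.0 and 79.7 per 10000. Cd24a, a surface glycoprotein, had 113 and 45 UMIs. Mpp1 (the p55 skeleton protein) and Slc4a1 (band 3, the anion exchanger) had 39 and 36 UMIs in Tsc1 flox against 8 and 7 in Tsc1 RPE KO, and are taken up again with the comparison of the libraries.

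Enzymes of the red cell were divided. Bpgm, which makes the 2,3-bisphosphoglycerate that lowers the oxygen affinity of hemoglobin, had 941 UMIs in Tsc1 flox, at 435 per 10000 and 194 times free RNA, and 427 in Tsc1 RPE KO, at 362 per 10000 and 315 times. Antioxidant enzymes were present, with Gpx1 at 344 and 80 UMIs, Prdx2 at 176 and 68, and Cat at 22 and 9. Glycolysis, the only source of ATP in a mature red cell, was close to absent as RNA: Gapdh had 2 and 1 UMIs, Ldha 0 and 3, Aldoa 0 and 0, and Tpi1 0 and 0. Of 21 enzyme genes tested, 7 were higher than free RNA (Bpgm, Car2, Gpx1, Prdx2, Blvrb, Hagh and Cat) and 3 lower (Aldoa, Gapdh and Gpx4). Over all genes the shares were 2.03% and 2.56%.

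Genes of reticulocyte maturation made up the largest sum of the lists of non-globin genes, at 1798 UMIs per 10000 in Tsc1 flox, where free RNA had 56.9, and at 1559 in Tsc1 RPE KO, where it had 59.4. Of 32 tested, 20 were higher than free RNA and 0 lower, beside 2.03% and 2.56% of all genes. With the mixed barcodes kept, 18 were higher and 1 lower, beside 1.99% and 2.42%. Ubiquitin pathway genes were prominent: Ubb, a ubiquitin gene, had 787 and 332 UMIs, Mkrn1, a ubiquitin ligase, had 781 and 417, and Ube2l6, a conjugating enzyme, had 309 and 152. Mkrn1 was 163 and 222 times its level in free RNA and Ube2l6 291 and 408 times, while Ubb, which most cells express, was 15.2 and 11.2 times. Bnip3l, the receptor that marks mitochondria for autophagy, had 263 and 159 UMIs, and Gabarapl2 and Map1lc3b, which coat autophagosomes, had 224 and 171 in Tsc1 flox against 171 and 63 in Tsc1 RPE KO.

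Some of the genes furthest above free RNA have no classical red cell role. Fam220a had 101 and 60 UMIs in 45 and 36 barcodes, at 872 (interval 387 to 2431) and 2201 (718 to 10974) times free RNA. Rec114, known from meiotic recombination, had 63 and 23 UMIs, at 544 and 1266 times. Apol11b had 71 and 31 UMIs, at 368 and 1706 times. Rsad2, an interferon-induced antiviral gene, had 92 and 56 UMIs, at 101 and 257 times. The free RNA behind these ratios was thin, as the width of the intervals shows. Fam220a, Rec114 and Apol11b reached the minimum count for this comparison only through their UMIs in the members. Genes as thin in free RNA but low in the members were not tested.

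Malat1, most ribosomal protein messages and most mitochondrially encoded RNAs were low. Malat1, a nuclear RNA and the 1 gene called lower of 5 listed nuclear RNAs, had 11 UMIs in Tsc1 flox, at 5.09 per 10000 against 181 in free RNA, and 23 in Tsc1 RPE KO, at 19.5 against 174. Ribosomal protein genes made 7.50% of non-globin UMIs in Tsc1 flox against 18.0% in free RNA, and 9.03% against 14.8% in Tsc1 RPE KO. Of 80 tested, 50 were lower than free RNA and 1, Rpl41, was higher, beside 2.56% lower and 2.03% higher over all genes. With the mixed barcodes kept, 28 were lower, beside 2.42%. Both shares over all genes also count genes too thin in free RNA to be called lower. Mitochondrially encoded genes made 1.78% and 1.60% against 4.02% and 4.30%, and 9 of 13 were lower and 0 higher.

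Regulators and cell cycle genes had few UMIs, 41 and 19 in all for the 20 listed regulators and 3 and 4 for the 16 cell cycle genes. Klf1, Kit and Tfrc had 0 UMIs in both libraries and Gata1 1 and 0. Of 11 regulators tested, 2 were higher than free RNA, beside 2.03% of all genes: Lmo2, with 18 and 10 UMIs, and E2f2, with 5 and 3. Of 4 cell cycle genes tested, 0 were called in either direction, and Mki67 had 1 and 0 UMIs. With the mixed barcodes left out, the 10 genes of the list named for the TSC complex and mTORC1 had 0 UMIs in either library, Tsc1 among them. Ppp1r1b, which encodes DARPP32, had 0 UMIs as well. The summed level of the list in free RNA was 4.01 per 10000 in both libraries, and the members had 21627 and 11792 non-globin UMIs. Of 3 genes of the list tested against free RNA, 0 were called, and the deletion could not be checked in these barcodes.

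Deeper and shallower barcodes also differed in non-globin RNA. Barcodes were ranked by total UMIs in each library and divided at 11945 UMIs in Tsc1 flox (34 and 35 barcodes) and at 6137 in Tsc1 RPE KO (41 and 41). This division was chosen after the data were seen; 16 and 7 barcodes lay within 10% of it. Of 102 genes tested for at least 1.5-fold with an interval off 1 in both libraries, 8 were higher in the deeper barcodes (7.84%) and 8 lower (7.84%). Among the higher were Cd24a, Glrx5, Gpx1, H3f3a, Mkrn1, Pabpc1 and Rnf10. Among the lower were Gm42418, Rpl13, Rpl41, Rplp1, Rps12, Rps29 and Tpt1.

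Gpx1, which detoxifies peroxides, had 304 UMIs in the deeper and 40 in the shallower Tsc1 flox barcodes, a ratio per non-globin UMI of 2.33 (interval 1.67 to 3.33). It had 80 and 0 UMIs in the deeper and shallower Tsc1 RPE KO barcodes. Pabpc1, the poly(A)-binding protein, had 219 and 36 UMIs in Tsc1 flox, with a ratio of 1.87 (1.31 to 2.73), and 142 and 6 in Tsc1 RPE KO, with a ratio of 5.35 (2.40 to 14.8). Tpt1, a ubiquitous translation-associated protein, went the other way, with ratios of 0.47 in both libraries. Markers of other cell types, a measure of free RNA, were also lower per non-globin UMI in the deeper barcodes, though on few UMIs. They stood at 7.85 against 19.7 per 10000 in Tsc1 flox, from 13 and 10 UMIs. In Tsc1 RPE KO they stood at 22.9 against 55.2, from 22 and 12 UMIs. The part of these markers in the result was not tested.

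Between the libraries, the genes were compared by at least 1.5-fold per non-globin UMI with an interval off 1, over genes with at least 20 UMIs in both together. Of 188 genes, 25 were lower in Tsc1 RPE KO (13.3%) and 13 higher (6.91%). The split depended on the scaling: divided by all UMIs 61 were lower and 4 higher, a shift of -0.41 in every log2 ratio, and scaled by the median of ratios 18 were lower and 22 higher, a shift of 0.14. With all members counted, 63 of 229 were lower (27.5%) and 43 higher (18.8%); all 25 lower genes were among the 63, and 10 of the 13 higher genes were among the 43. With 1 pool of animals per genotype these are differences between 2 libraries, and the animals, the library and the genotype cannot be told apart.

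Several of the most abundant erythroid messages differed by less than 1.5-fold. Alas2 stood at 435 and 512 per 10000, Mkrn1 at 361 and 354, Bpgm at 435 and 362, and Sec61g, a translocon subunit, at 252 and 250. Tsc1 RPE KO over Tsc1 flox was 1.18 for Alas2 (interval 1.06 to 1.31), 0.98 for Mkrn1 (0.87 to 1.10) and 0.83 for Bpgm (0.74 to 0.93). These values turned on the 2 mixed barcodes and the scaling. With all members counted, Alas2 was at 0.83 (0.75 to 0.92), Mkrn1 at 0.68 (0.60 to 0.76), Sec61g at 0.68 (0.59 to 0.79) and Bpgm at 0.57 (0.51 to 0.64), which is past 1.5-fold. Without the mixed barcodes but divided by all UMIs, Alas2 was at 0.89 (0.80 to 0.99) and Bpgm, again past 1.5-fold, at 0.63, so no direction is given for Alas2.

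Genes of the membrane, of redox defence and of translation initiation were among those lower in Tsc1 RPE KO. Car2 (chr3:14886273-14900770), the carbonic anhydrase that converts carbon dioxide to bicarbonate, had 280 UMIs in 17 of 69 Tsc1 flox barcodes and 17 UMIs in 8 of 82 Tsc1 RPE KO barcodes, with a ratio of 0.11 (interval 0.064 to 0.18). Eif5, a translation initiation factor, had 96 and 7 UMIs, with a ratio of 0.13 (0.052 to 0.29). Trim10, an erythroid TRIM protein, had 53 and 5, and Blvrb, a biliverdin reductase, 70 and 8. Slc4a1, Mpp1, Glrx5 and Gpx1 were also lower, with ratios of 0.36, 0.38, 0.53 and 0.43.

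The counts per list are read against 13.3% of all genes lower and 6.91% higher. Of 5 membrane genes tested, 3 were lower, Slc4a1 and Mpp1 among them. Of 7 enzymes, 3 were lower (Car2, Blvrb and Gpx1), and of 20 maturation genes 5 were lower, Bcl2l1, Trim10, Ube2h and Ypel3 among them. Among heme genes 0 of 3 were called. Of 7 iron genes, Glrx5 was lower and Ftl1 higher. The median log2 ratio of the tested genes was -1.41 for the membrane list, -0.51 for the enzymes, -0.43 for maturation, 0.22 for heme and 0.05 for iron, beside -0.14 over all 188 genes. With all members counted the medians were -1.98 for the membrane list, -0.99 for the enzymes, -0.85 for maturation, -0.27 for heme and -0.44 for iron, beside -0.31 over all genes tested, so the signs for heme and iron turned on the 2 mixed barcodes.

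**Figure D4:**
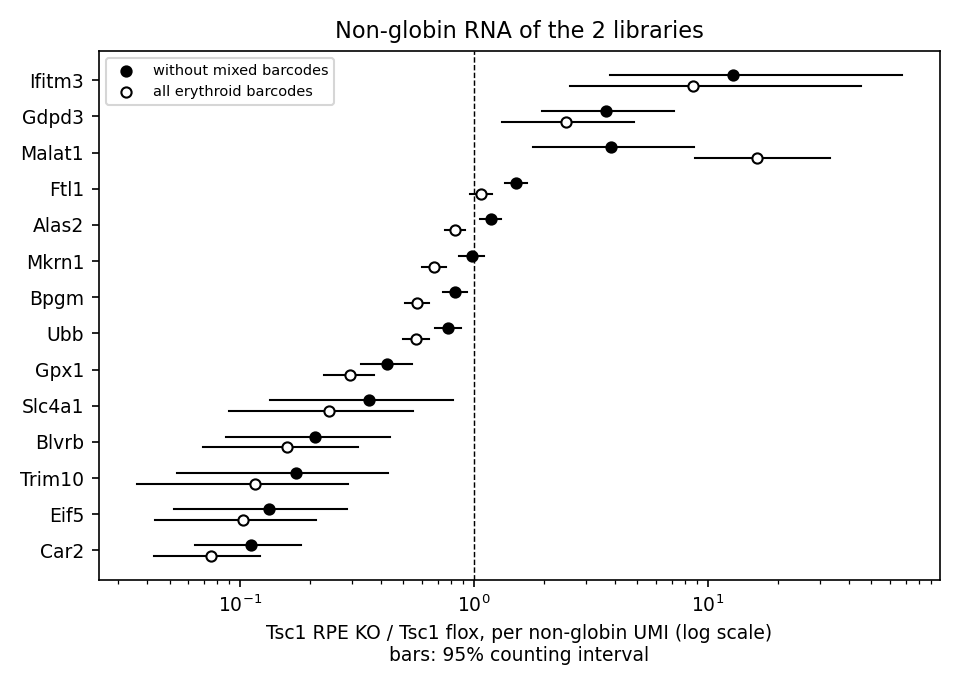
Ratio of Tsc1 RPE KO to Tsc1 flox erythroid barcodes per non-globin UMI on a log scale, with 95% counting intervals as bars, without the mixed barcodes (filled) and with all members (open). Car2 lies lowest in both versions, and Malat1 moves from 3.83 to 16.3 when the mixed barcodes are kept.

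The UMIs of Car2, Eif5, Trim10 and Blvrb, which are among the genes furthest below 1 by the interval bound nearest 1, lay in a minority of Tsc1 flox barcodes. The 4 genes had 499 UMIs together in Tsc1 flox. There, 17 of 69 barcodes had at least 2 of them, and these held 487 of the 499 UMIs (97.6%), while 41 barcodes had none. These 17 barcodes had a median of 639 non-globin UMIs (296 to 1276) against 176 in the other Tsc1 flox barcodes, and a median of 15739 total UMIs against 10444.5. In Tsc1 RPE KO 8 of 82 barcodes had at least 2 of the genes, 67 had none, and the 4 genes had 37 UMIs in all. The barcodes were chosen by these genes, so the counts are a description, which the plot of the summed genes against non-globin UMIs shows by barcode.

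**Figure D5:**
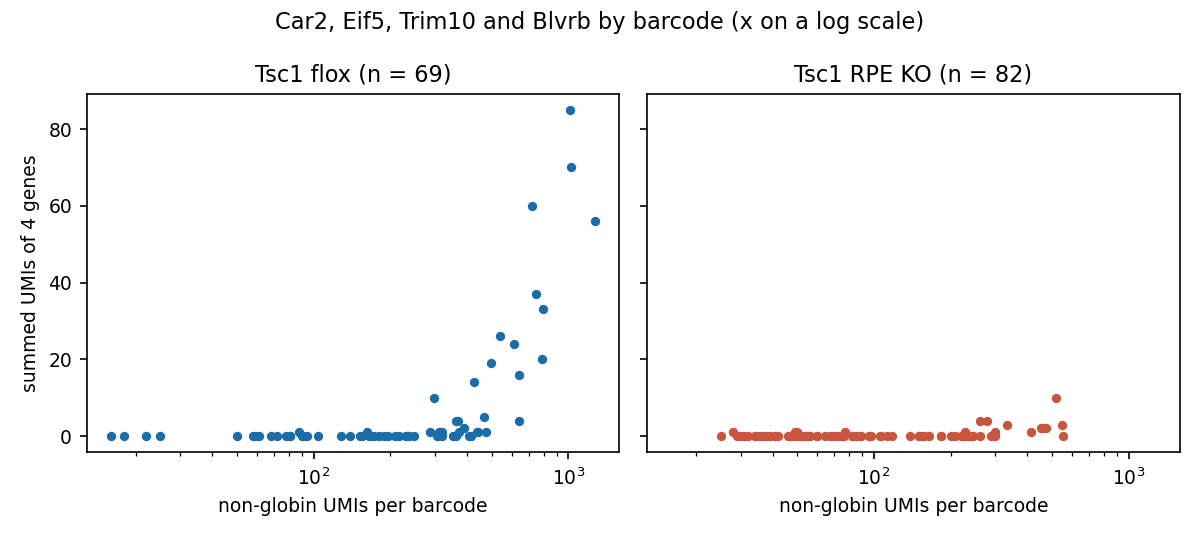
Summed UMIs of Car2, Eif5, Trim10 and Blvrb against non-globin UMIs on a log scale, 1 point per erythroid barcode without the mixed barcodes, 1 panel per library. In Tsc1 flox the sum rises in barcodes with the most non-globin RNA, which reach 1276 UMIs; in Tsc1 RPE KO no barcode has more than 554.

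Barcodes of like RNA content were then compared, a step added after the data were seen. In Tsc1 flox 10 barcodes had more than 600 non-globin UMIs, and in Tsc1 RPE KO 0. Among barcodes with 200 to 600, of which there were 30 in Tsc1 flox (median 336.5) and 23 in Tsc1 RPE KO (median 277), only 6 of 122 genes were lower in Tsc1 RPE KO (4.92%) and 4 higher (3.28%). Lower were Car2, Eif5, Rec114, Rpl35a, Ucp2 and Ypel5, and higher were Gdpd3, Pabpc1, Rpl19 and Rps9. Car2 had 44 UMIs in 7 Tsc1 flox barcodes and 15 in 6 Tsc1 RPE KO barcodes, with a ratio of 0.48 (interval 0.25 to 0.87) in place of 0.11. Eif5 stood at 0.35 (0.12 to 0.87). Trim10 and Blvrb, at 0.70, had intervals that included 1, and Gpx1 moved from 0.43 to 1.08 (0.78 to 1.48). Slc4a1, with 5 UMIs against 7, moved from 0.36 to 1.95 (0.53 to 7.80), and Alas2 from 1.18 to 0.98 (0.86 to 1.13).

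Per non-globin UMI, fewer genes were higher than lower in Tsc1 RPE KO, which did not hold with scaling by the median of ratios. Ftl1 had 757 UMIs in Tsc1 flox against 626 in Tsc1 RPE KO, with a ratio of 1.52 (interval 1.36 to 1.69). It was not past 1.5-fold with all members counted, at 1.07 (0.96 to 1.19), at a globin share of at least 90%, at 1.46, or, without the mixed barcodes, divided by all UMIs, at 1.14, and among barcodes with 200 to 600 non-globin UMIs, at 1.17. Gdpd3, a lysophospholipase D, had 16 UMIs in 6 barcodes and 32 in 11, with a ratio of 3.67 (1.95 to 7.16). Ifitm3, an interferon-induced membrane protein, had 3 and 21 UMIs, with a ratio of 12.8 (3.83 to 67.2), but 12 of the 21 lay in 1 barcode, and without the barcode with most UMIs in each library (all other members kept) the ratio was 5.31 (1.10 to 50.5). Malat1 had 11 and 23 UMIs and Sec61a1 8 and 18, both lower in members than in free RNA. Of 35 ribosomal protein genes tested, 5 were higher (Rpl13, Rpl19, Rpl37a, Rpl38 and Rps21) and 0 lower, beside 6.91% higher over all genes; with all members counted, 23 of 56 were higher, beside 18.8%. Free RNA, judged from markers of rods, RPE and fibroblasts, was estimated at 4.12% of the non-globin UMIs in Tsc1 flox, from 8 marker UMIs. In Tsc1 RPE KO it was estimated at 10.4%, from 16 marker UMIs. With the mixed barcodes kept, the same estimate gave 60.6% from 139 marker UMIs. Of these, 105 were Ttr in 1 mixed barcode, so that value does not measure free RNA. The part of free RNA in these differences was not tested.

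With all members counted, the genes highest in Tsc1 RPE KO were those of the mixed barcodes. Ptgds had 120 UMIs, of which 118 lay in 1 barcode, and Ttr had 107, of which 105 lay in that barcode. Cd74 had 67 UMIs, of which 66 lay in the other. Without the 2 barcodes Cd74 had 5 UMIs in Tsc1 flox against 1 in Tsc1 RPE KO, at a ratio of 0.37 (interval 0.0078 to 3.28).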

How the data were processed

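A pair of 10x Genomics libraries, 1 per genotype, were analysed from the deposited raw UMI counts per gene and barcode, which the authors left unfiltered and which totalled 10771118 UMIs (Tsc1 flox) and 12574364 UMIs (Tsc1 RPE KO). Cell Ranger 2.1.1 and the build mm10 are given in the submitters' processing notes, whereas the matrix header gives Cell Ranger 4. No doublets were removed. Members were chosen by globin share, and barcodes with at least 3 UMIs of other cell types' markers were called mixed. Members and gene lists were chosen with earlier results of these data known. Counts were summed per library and divided by non-globin UMIs. Ratios have exact conditional binomial intervals, shares exact Clopper-Pearson intervals, and levels exact Poisson intervals. A count of 0 was set to 3 counts for a ratio, which is then a bound. Named genes were all globins, Alas2, the 15 most abundant non-globin genes, up to 4 per list, the 12 furthest above free RNA and the 6 highest and 6 lowest between libraries, ranked by the interval bound nearest 1; Xist, Tsix and Y-linked genes were left out, and some other genes are not reported here. Others named were chosen after their values were seen. Positions are from GENCODE M21 (GRCm38), which held 32158 of 32285 gene identifiers; Ahsp and Hbb-bh0 were not in the gene list. Python 3.11.15, numpy 2.4.6, scipy 1.17.1 and pandas 2.3.3 were used. The ratio step was tested on simulated sums drawn without variation between barcodes, so UMIs clustered in few barcodes were not covered.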

Additional observations from a re-analysis of the deposited data

How the results depend on the processing

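The member counts and the counts of genes above and below free RNA stayed within 1.5 times under every alternative tried. The non-globin share in Tsc1 RPE KO moved from 3.09% to 2.31% with a globin share of at least 90% and to 2.19% without mixed barcodes. The 43 genes higher and 63 lower in Tsc1 RPE KO became 15 and 30 with a globin share of at least 90%, 13 and 25 without mixed barcodes, and 15 and 41 with at least 50 UMIs. With no minimum on UMIs 123 were higher, and with free RNA subtracted 8 were. With all members counted, that subtraction was set at 60.6% of the Tsc1 RPE KO non-globin UMIs, which rests mostly on Ttr in 1 mixed barcode. Scaling by the median of ratios shifted log2 ratios by 0.32 and gave 56 higher and 37 lower; scaling to all UMIs shifted them by 0.09 and gave 47 and 52. The other alternatives were added after seeing the data and left the mixed barcodes out. With at least 100 non-globin UMIs 10 were higher and 17 lower, with 200 to 600 non-globin UMIs 4 and 6, and without barcodes holding 2 or more of Car2, Eif5, Trim10 and Blvrb 3 (Malat1, Rpl37a and Sec61a1) and 9. Scaled to all UMIs (shift -0.41) 4 were higher (Gdpd3, Ifitm3, Malat1 and Sec61a1) and 61 lower, and by the median of ratios (shift 0.14) 22 and 18, so the side with more calls depends on the scaling.

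Among named genes past 1.5-fold with all members counted, directions turned for 7. Alas2, which was not past it, stood at 0.83 with all members and ran from 0.80 to 1.30 under the alternatives. The Tsc1 RPE KO over Tsc1 flox ratio of Cd74 fell below 1 at a globin share of at least 90% (0.34), without mixed barcodes (0.37), with at least 100 non-globin UMIs as well (0.56), without barcodes of those 4 genes (0.31), under both other scalings (0.28 and 0.40) and without its richest barcodes (0.42). With 200 to 600 non-globin UMIs the ratio was 1.01 for Bpgm, 1.14 for Eif1, 1.08 for Gpx1, 0.70 for Rplp1, 1.95 for Slc4a1 and 1.31 for Ubb. The cause was not tested. No paired analysis was possible because there was 1 library per genotype.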
